A study of Mus musculus with 8 samples.

Results

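The immediate early genes examined here were Fos, Fosb, Jun, Junb, Egr1, Egr2, Atf3, Ier2, Ier3 and Nr4a1, in the subcutaneous fat of diabetic male mice. They were chosen by name, as transcripts that can show handling or stimulation of a tissue, and every probe set that the platform annotation assigned to exactly 1 of these 10 genes was used. This gave 12 probe sets of the 45101 on the array, and 10 of the 18193 genes that the annotation names. Jun and Egr2 were read by 2 probe sets each and the other genes by 1. The labels give an age of 8 weeks for all mice, and gavage lasted 10 weeks with 5 treated days in each. As gavage lasted longer than 8 weeks, this cannot be the age of the mice after it. The 4 placebo mice (numbers 6, 8, 10 and 14) received water alone, and the 4 supplemented mice (numbers 5, 9, 11 and 13) received niacin-bound chromium (NBC), trivalent chromium complexed with nicotinic acid, in water at 10 mg per kg body weight. Both groups were diabetic per the title of the series, and the strain is not given in the sources used here. Each mouse gave 1 Affymetrix Mouse Genome 430 2.0 array, and all values below are MAS5 signals, a brightness on a linear scale that can be compared between mice for 1 probe set but not between probe sets. Precision is limited by the number of arrays.

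Immediate early genes are transcribed within minutes of a stimulus, from regulatory proteins that are already present in the cell, and their transcripts are short-lived. Growth factors, cytokines, adrenergic signals, mechanical strain and the removal of a tissue are all known to induce them. The MAP kinase pathway acts through serum response factor bound to the CArG box, and the cyclic AMP pathway through CREB bound to the cyclic AMP response element. Fos and Jun proteins pair through leucine zippers to form the transcription factor AP-1, Egr proteins bind GC-rich DNA through zinc fingers, and Nr4a1 is an orphan nuclear receptor. In fat, Fos and Egr genes respond to insulin, to adrenergic signals and to the start of adipocyte differentiation.

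The promoters of Fos, Egr2 and Nr4a1 are shown because NBC mouse 13 was highest for Fos and Egr2 and lowest for Nr4a1, as described below. Each line gives the 150 bases before an annotated start of the gene, 5′ to 3′ on the strand of the gene, from RefSeq (GRCm38.p6). Capitals mark the core of the cyclic AMP response element (TGACG on either strand) and, in Egr2, also the CArG box.
Fos, chr12:85473740-85473889, plus strand: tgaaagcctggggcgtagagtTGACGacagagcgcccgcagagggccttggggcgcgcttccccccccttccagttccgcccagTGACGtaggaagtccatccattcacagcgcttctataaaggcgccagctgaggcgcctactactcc
Egr2, chr10:67537719-67537868, plus strand: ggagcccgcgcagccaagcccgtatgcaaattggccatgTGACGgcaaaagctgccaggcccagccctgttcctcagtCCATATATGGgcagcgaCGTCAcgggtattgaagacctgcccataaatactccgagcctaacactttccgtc
Nr4a1, chr15:101266696-101266845, plus strand: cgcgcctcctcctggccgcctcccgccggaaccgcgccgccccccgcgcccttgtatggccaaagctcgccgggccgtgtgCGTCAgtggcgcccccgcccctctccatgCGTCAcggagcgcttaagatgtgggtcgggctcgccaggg
The core lay at 129 and 66 bases before the start in Fos, at 111 and 55 in Egr2 and at 69 and 40 in Nr4a1, counted to its first base. RefSeq windows were matched for 8 of the 10 genes, that is all but Egr1 and Ier2. The core was found in 6 of these 8 (Atf3, Egr2, Fos, Fosb, Junb and Nr4a1), and in 13.3% of the 32817 promoter windows of the same length. A gene was counted if any of its windows held a match, while the shares count single windows, so the 2 are not alike. Egr2 has several annotated starts, and only 1 of its windows is shown. Its window at chr10:67535349 held no match, and that at chr10:67537416 held a CArG box but no core. A CArG box was found in Egr2 alone among the 8, and in 0.917% of all windows. Bases farther upstream were not searched, so the other genes, Fos among them, may hold a CArG box outside this window. The EGR site (GCGNGGGCG, either strand) was found in Fosb and Nr4a1 and in 3.81% of all windows, and the AP-1 site (TGANTCA, either strand) in 0 of the 8 genes and in 4.24% of all windows. No matches overlapped, and a match is a run of letters in this window, not a shown site of binding.

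The comparison of NBC with placebo mice asked whether these transcripts differed after 10 weeks of supplementation. None of the 11 member probe sets that were bright enough to be tested passed the threshold (limma, Benjamini-Hochberg over 22519 probe sets, adjusted p from 0.775 to 0.987). Over all probe sets, 0% passed. The means were mostly slightly higher in NBC mice: of the 9 tested genes, read by their brightest probe set, 8 lay above 0 in log2 difference, taken as NBC minus placebo, against 48.5% of all tested genes. The median of the 9 was 0.26, against -0.010 over all tested probe sets. For all 12 probe sets the signals of the 4 placebo and 4 NBC mice overlapped, where 3.85% of the tested probe sets did not overlap. An unadjusted p under 0.05 was reached by 1 of the 11 probe sets, that of Ier3, against 6.22% of all tested probe sets. Without placebo mouse 10 the count of genes above 0 was 6 of 9, and without NBC mouse 13 it was 7 of 9.

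**Figure D1:**
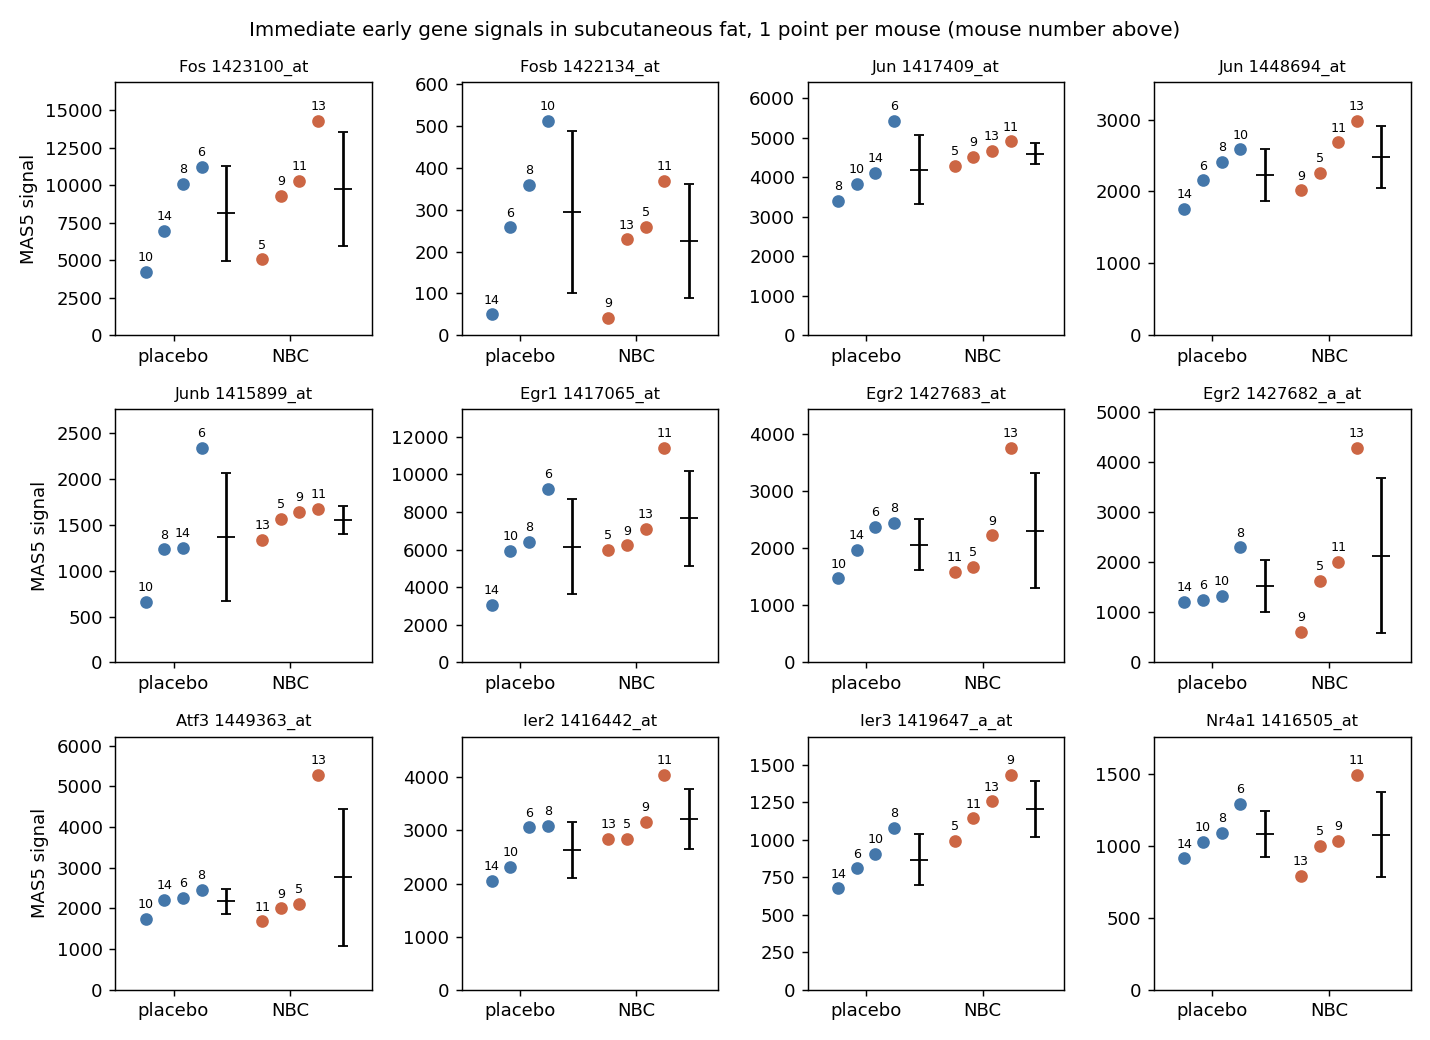
MAS5 signal (vertical axis, linear from 0, scaled separately for each probe set) of the 12 immediate early probe sets in the 4 placebo (blue) and 4 NBC (orange) mice, with the mouse number above each point and the mean with its SD as a black bar to the right. The points of the groups overlap in every panel, and NBC mouse 13 stands alone at 5269 for Atf3.

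Fos encodes the AP-1 subunit that gave the family its name. Its signal (probe set 1423100_at) was 11219, 10097.9, 4245.6 and 6955 in the placebo mice (6, 8, 10 and 14) against 14288, 10303.3, 9272.4 and 5059.4 in the NBC mice (13, 11, 9 and 5). Each group thus held mice at both ends of the range, with placebo mouse 10 lowest and NBC mouse 13 highest. The placebo mean was 8129 ± 3156 (SD, n = 4) and the NBC mean 9731 ± 3792 (SD, n = 4). The log2 difference was 0.26 (standard error 0.37, 95% interval -0.59 to 1.11). The exact two-sided permutation p over the 70 splits of 4 against 4 was 0.571, where the smallest possible is 0.0286. Without placebo mouse 10 the difference was -0.019, without NBC mouse 13 it was 0.045 and without NBC mouse 5 it was 0.54.

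Fosb, a close relative of Fos, lay below the filter on dim probe sets. Its probe set 1422134_at read 257.5, 358.7, 511.7 and 50.1 in the placebo mice (6, 8, 10 and 14) against 229.1, 369.1, 42.2 and 258.2 in the NBC mice (13, 11, 9 and 5). The lowest values, in placebo mouse 14 and NBC mouse 9, and the highest, in placebo mouse 10, followed neither the groups nor Fos. Fitted with no filter, the log2 difference was -0.30 with a standard error of 0.73 (limma adjusted p = 0.980).

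Jun encodes the most studied partner of Fos in AP-1, and Junb a partner that can restrain Jun. Jun varied little. Its brighter probe set 1417409_at ran from 3405.3 (placebo mouse 8) to 5428.9 (placebo mouse 6), so that the 4 NBC mice, at 4285 to 4910.1, lay within the placebo range. The log2 difference was 0.15 (standard error 0.15, 95% interval -0.20 to 0.50), and the other probe set, 1448694_at, gave 0.15 (standard error 0.17). The 2 probe sets did not order the mice alike. On 1448694_at, NBC mice 13 (2980.3) and 11 (2681.7) lay above the highest placebo mouse, number 10 (2584.6), and placebo mouse 14 (1757.6) was lowest. The difference on the brighter probe set was 0.280 without placebo mouse 6 and 0.057 without placebo mouse 8. Junb (1415899_at) read 2331.6, 1230.1, 654.4 and 1244.4 in the placebo mice (6, 8, 10 and 14) against 1337.2, 1672.3, 1638.5 and 1565 in the NBC mice (13, 11, 9 and 5). Placebo mice thus held both the highest and the lowest value while the NBC mice lay close together, with means of 1365 ± 700 (SD, n = 4) and 1553 ± 151 (SD, n = 4). The Junb difference was 0.31 (standard error 0.32, 95% interval -0.41 to 1.04), and it was 0.017 without placebo mouse 10 and 0.61 without placebo mouse 6.

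Atf3 encodes a stress-induced repressor that pairs with Jun proteins. Its probe set 1449363_at read 2264.8, 2455.5, 1747.7 and 2205.7 in the placebo mice (6, 8, 10 and 14) against 5269, 1676.4, 1995.1 and 2114.8 in the NBC mice (13, 11, 9 and 5). The value of NBC mouse 13 was far above the other 7, which lay between 1676.4 and 2455.5. The log2 difference was 0.20 (standard error 0.33, 95% interval -0.54 to 0.94), and it was -0.16 without NBC mouse 13 and 0.38 without NBC mouse 11.

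Egr1 is the zinc finger factor most often used as a readout of MAP kinase signalling. Its signal (1417065_at) was 9219.2, 6430.3, 5942.3 and 3059.9 in the placebo mice (6, 8, 10 and 14) against 7124.1, 11404.4, 6227.9 and 5979.4 in the NBC mice (13, 11, 9 and 5). Placebo mouse 14 stood lowest and NBC mouse 11 highest, and the remaining NBC mice lay inside the placebo range. The placebo mean was 6163 ± 2523 (SD, n = 4) and the NBC mean 7684 ± 2529 (SD, n = 4), which differed by 0.37 on the log2 scale (standard error 0.33, 95% interval -0.39 to 1.13, exact permutation p = 0.400). It was 0.070 without placebo mouse 14, 0.164 without NBC mouse 11 and 0.60 without placebo mouse 6.

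Egr2, which acts in adipocyte differentiation and in myelin formation, was read by 2 probe sets that did not order the mice alike. The brighter, 1427683_at, read 2382.4, 2441.5, 1472.7 and 1972 in the placebo mice (6, 8, 10 and 14) against 3756.5, 1589.6, 2225.5 and 1677.4 in the NBC mice (13, 11, 9 and 5). The other, 1427682_a_at, gave 1249.6, 2297.2, 1333 and 1210.9 for the placebo mice against 4277.8, 2009.7, 604.6 and 1624.5 for the NBC mice, in the same order. NBC mouse 13 was highest on both, while NBC mouse 9 was lowest on the second alone. The log2 differences were 0.099 (standard error 0.28, 95% interval -0.54 to 0.74) and 0.22 (standard error 0.51, 95% interval -0.93 to 1.36). The first was -0.16 without NBC mouse 13, -0.052 without placebo mouse 10 and -0.069 with arrays weighted by their quality.

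Nr4a1, a nuclear receptor induced by adrenergic signals in fat, had the difference nearest to 0. Its probe set 1416505_at read 1293.2, 1091.5, 1028 and 912 in the placebo mice (6, 8, 10 and 14) against 789, 1489.4, 1035.2 and 997.7 in the NBC mice (13, 11, 9 and 5). Both ends of this range were NBC mice, with mouse 11 highest and mouse 13, which was highest for Fos, Egr2 and Atf3, lowest. The log2 difference was -0.030 (standard error 0.20, 95% interval -0.48 to 0.42). It was 0.10 without NBC mouse 13, 0.058 without placebo mouse 6 and 0.050 with array weights.

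Ier2 encodes a small nuclear protein of the early growth response, and Ier3 a protein linked to cell survival and NF-kappaB signalling. Ier2 (1416442_at) ran from 2052.3 to 3087.5 in placebo and from 2837.5 to 4040.1 in NBC mice, with NBC mouse 11 highest and placebo mouse 14 lowest. Its log2 difference was 0.30 (standard error 0.18, 95% interval -0.11 to 0.70), and it was 0.183 without NBC mouse 11 and 0.186 without placebo mouse 14. Ier3 (1419647_a_at) read 809.3, 1080.2, 907.9 and 675.6 in the placebo mice (6, 8, 10 and 14) against 1256.4, 1142.8, 1430.5 and 989.7 in the NBC mice (13, 11, 9 and 5). The groups overlapped by 1 mouse each, since NBC mouse 5 lay below placebo mouse 8. The placebo mean of Ier3 was 868 ± 170 (SD, n = 4) and its NBC mean 1205 ± 186 (SD, n = 4). This log2 difference of 0.47 (standard error 0.17, 95% interval 0.078 to 0.86) was the largest of the 11, and its interval, which is not adjusted for the number of probe sets tested, was the only one of the 11 that did not include 0. Its unadjusted p of 0.0238 ranked 686 of 22519, the limma adjusted p was 0.775 and the exact permutation p 0.0571. With 1 mouse left out, the Ier3 difference lay between 0.358 and 0.577.

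For all tested genes except Ier2 and Ier3, the SD of the log2 signal within groups was larger than the difference between the groups. The highest signal was 3.37 times the lowest for Fos, 3.73 times for Egr1, 3.56 times for Junb and 3.14 times for Atf3. It was 2.55 and 7.08 times the lowest for the 2 probe sets of Egr2. By contrast it was 1.59 times for the brighter Jun probe set, 1.89 times for Nr4a1, 1.97 times for Ier2 and 2.12 times for Ier3. Within groups, the SD of the log2 signal of Fos was 0.63, larger than that of 94.2% of the tested probe sets. This share was 91.3% for Egr1, 90.6% for Atf3, 89.8% for Junb and 84.7% for Egr2. It was 60.4% for Nr4a1, 52.7% for Ier2, 48.1% for Ier3 and 36.4% for Jun. These shares describe the 8 arrays.

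**Figure D2:**
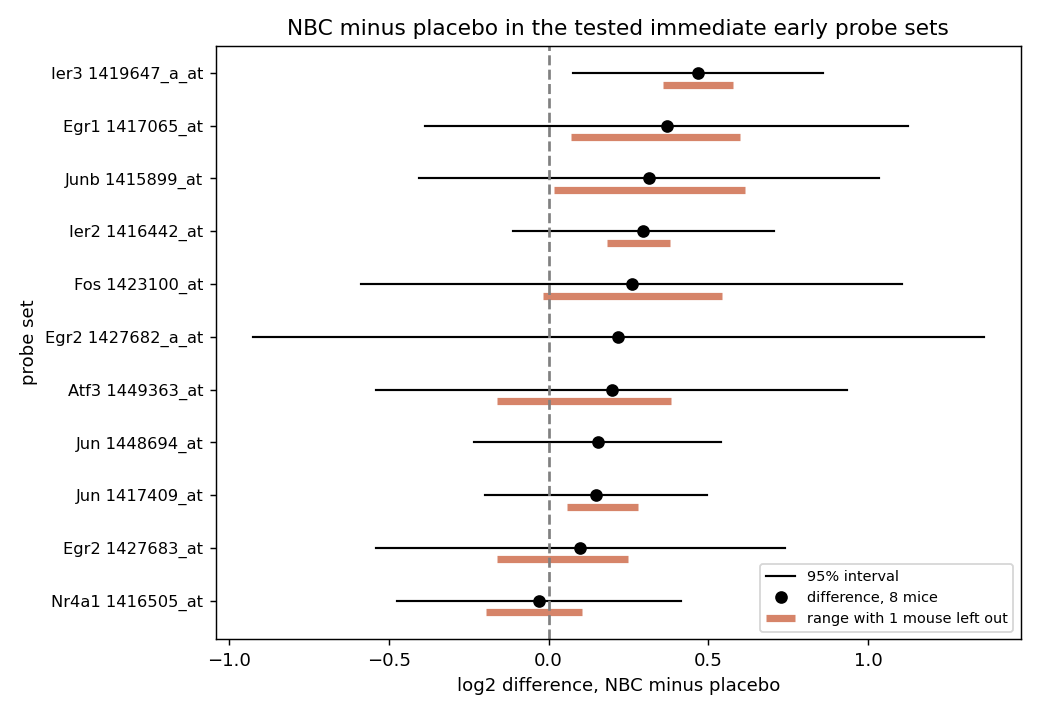
Log2 difference, NBC minus placebo (horizontal axis), of the 11 tested immediate early probe sets (vertical axis), with limma's 95% interval in black and, for the brightest probe set of each gene, the range when 1 mouse is left out in orange. Only the interval of Ier3, 0.078 to 0.86, lies on 1 side of 0, and the orange range crosses 0 for Fos, Egr2, Atf3 and Nr4a1.

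Mice that were high for 1 of these genes were high for some of the others and not for all. Over the 8 mice, Pearson's r between pairs of the 9 tested genes ran from -0.67 (Atf3 and Nr4a1) to 0.91 (Egr2 and Atf3). It was 0.87 for Egr1 and Ier2, 0.043 for Egr1 and Egr2, -0.040 for Egr1 and Atf3 and -0.49 for Egr2 and Nr4a1. Read by the brightest probe set, placebo mouse 10 was above the median of the 8 mice for 0 of the 9 tested genes. Placebo mouse 14 and NBC mouse 5 were above it for 1 of 9 each. Placebo mouse 6 was above it for 8 of 9, placebo mouse 8 and NBC mouse 11 for 7 of 9, and NBC mice 13 and 9 for 6 of 9. By this count the low and the high mice came from both groups. The share of all tested genes above their median in each mouse was not counted, so a shift of the whole array cannot be told apart. The mean of the standardised log2 signals was lowest in placebo mice 10 (-0.93) and 14 (-0.83). It was -0.29 in NBC mouse 5, which was lowest for 0 of the 9 genes. This mean was highest in NBC mice 13 (0.61) and 11 (0.60) and placebo mouse 6 (0.59). NBC mouse 13 lay above the median of the 8 mice by 1.28 on the log2 scale for Atf3, by 0.83 for Egr2 and by 0.56 for Fos, and NBC mouse 11 by 0.85 for Egr1 and by 0.52 for Nr4a1. Placebo mouse 10 was at -1.18 for Fos and at -1.11 for Junb, relative to that median. The highest mouse differed by gene. NBC mouse 13 was highest for Fos, Egr2 and Atf3, and NBC mouse 11 for Egr1, Ier2 and Nr4a1. Placebo mouse 6 was highest for Jun and Junb, and NBC mouse 9 for Ier3. On the other Jun probe set, 1448694_at, NBC mouse 13 was highest and placebo mouse 14 lowest. There placebo mouse 10 lay above the median (2584.6 against 2334.2). NBC mouse 13 was lowest for Nr4a1 and NBC mouse 11 lowest for Atf3, so the same 2 mice stood at opposite ends for these 2 genes. Among the lowest values, placebo mouse 10 held those of Fos, Junb and Egr2, placebo mouse 14 those of Egr1, Ier2 and Ier3, and placebo mouse 8 that of Jun.

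**Figure D3:**
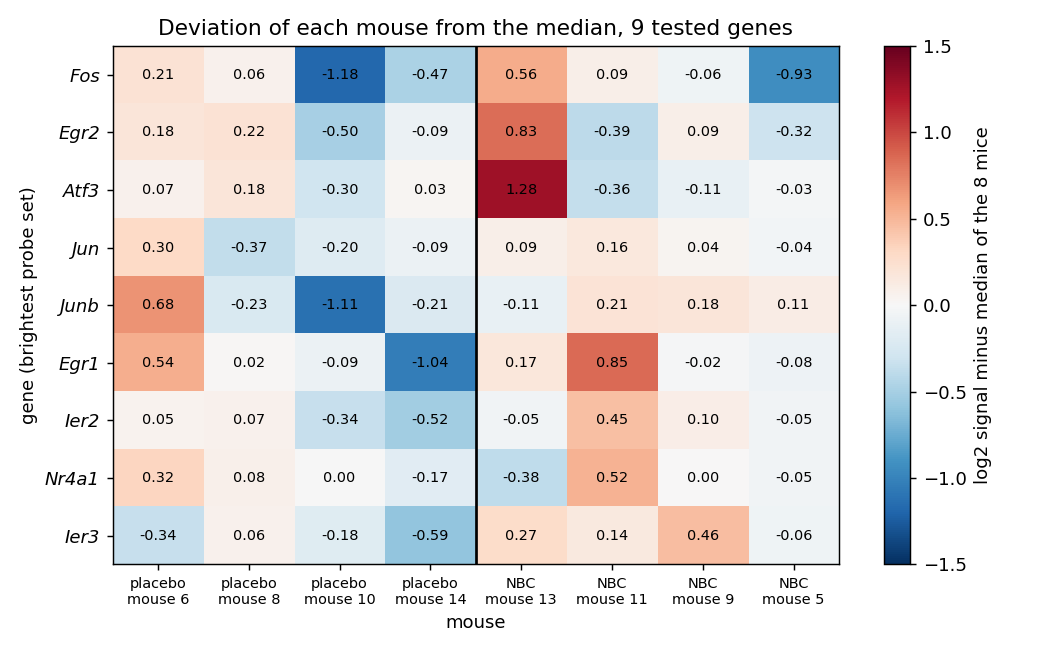
Log2 signal minus the median of the 8 mice (colour and printed value) for the 9 tested genes (rows, brightest probe set) in each mouse (columns, placebo left of the line and NBC right). NBC mouse 13 stands out for Atf3 (1.28), Egr2 (0.83) and Fos (0.56), NBC mouse 11 for Egr1 (0.85) and Nr4a1 (0.52), and placebo mouse 10 is low for Fos (-1.18) and Junb (-1.11).

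Fos was set against each of the other 9 members over the 8 mice, and 0 of the 9 relations passed after Benjamini-Hochberg adjustment over the 9. Each gene was read by its brightest probe set alone. The highest Pearson correlation of log2 signals was with Egr2 probe set 1427683_at (r = 0.79, exact permutation p = 0.0184, adjusted 0.166). Spearman's rho for this pair was 0.71 (exact permutation p = 0.0576, adjusted 0.249). Without the mice farthest from the median of Fos, placebo mouse 10 and NBC mouse 5, that r was 0.67. The other probe sets of Egr2 (1427682_a_at) and Jun (1448694_at), which ordered the mice otherwise, were not set against Fos. With Egr1 the order of the mice was closer than the distances, at rho = 0.83 (exact permutation p = 0.0154, adjusted 0.138) and r = 0.45 (exact permutation p = 0.264, adjusted 0.400), or r = 0.69 without those 2 mice. Pearson's r was 0.59 with Junb, 0.58 with Atf3, 0.54 with Ier2, 0.45 with Jun and 0.40 with Ier3, with adjusted exact permutation p from 0.378 to 0.415 and rho from 0.36 to 0.67. It was 0.095 with Nr4a1 and -0.12 with Fosb (rho 0.21 and -0.24, adjusted exact permutation p = 0.829 for both r and 0.619 for both rho). Without placebo mouse 10 and NBC mouse 5 these r were 0.24 for Junb, 0.65 for Atf3, 0.49 for Ier2, 0.36 for Jun, 0.52 for Ier3, -0.061 for Nr4a1 and 0.63 for Fosb, so that the sign turned for Nr4a1 and Fosb. No batch is named in the labels, so no relation could be given within one.

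**Figure D4:**
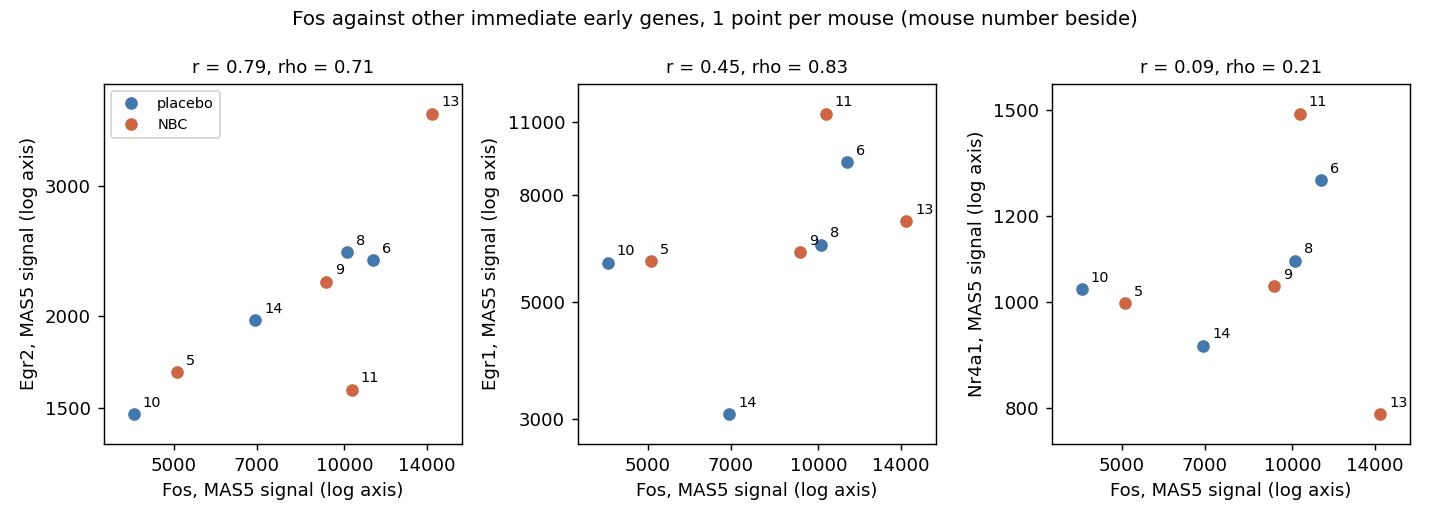
MAS5 signal of Fos (horizontal log axis) against Egr2, Egr1 and Nr4a1 (vertical log axes) in the 4 placebo (blue) and 4 NBC (orange) mice, with the mouse number beside each point. On its brighter probe set, the only one shown, Egr2 follows Fos in most mice except NBC mouse 11 (r = 0.79). Placebo mouse 14 lies apart for Egr1 (r = 0.45), and NBC mouse 13 is highest for Fos and lowest for Nr4a1 (r = 0.095).

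Other genes of the early response gave no calls either. Of 57 further primary response genes, 51 were tested, 5 lay below the filter (Egr4, Nr4a3, Arc, Ptgs2 and Il6) and 1 was not analysed here. Of the 51, read by their brightest probe set, 0 passed limma's adjusted threshold and 4 had an unadjusted p under 0.05, against 5.44% of all tested genes. The log2 difference was above 0 for 38, against 48.5% of all tested genes, and below 0 for 13, with a median of 0.086. The groups did not overlap for 2 of the 51, against 3.93% of all tested genes. These were thrombospondin 1, Thbs1, at -1.08 (standard error 0.26) and the cytokine signalling suppressor Socs3 at 0.77 (standard error 0.21). Dusp5, a nuclear phosphatase that inactivates MAP kinases, was 1 of the 4. Its probe set 1437199_at read 232.3, 282.6, 65.4 and 206.1 in the placebo mice (6, 8, 10 and 14) against 910.7, 510.5, 359.5 and 277.9 in the NBC mice (13, 11, 9 and 5). The placebo mice were all dim, and the groups overlapped only because NBC mouse 5 lay just below placebo mouse 8. Its placebo mean of 197 lay below the filter signal of 275 and its NBC mean of 515 above it, so it was tested only because of the NBC mice, and no fitted difference is given. For the same reason its place among the 4, and among the 38 above 0, is no support for a difference. The clock repressor Bhlhe40 differed by 0.50 (standard error 0.21) and the clock gene Per1 by 0.27 (standard error 0.12), both with overlap.

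Among the regulators of immediate early transcription, 22 of 26 genes were tested and the other 4 were not analysed here. Of the 22, read by their brightest probe set, 0 passed limma's adjusted threshold and 1 had an unadjusted p under 0.05, near the 5.44% of all tested genes. The log2 difference was above 0 for 15, against 48.5% of all tested genes, and below 0 for 7, with a median of 0.038. The 1 gene was Mrtfb, a coactivator of serum response factor, described here because it was also among the genes most like the members in pattern. Its signal was 5067.7, 4498, 4071.5 and 4418.9 in the placebo mice (6, 8, 10 and 14) against 5703.9, 5758, 5619.8 and 4783.3 in the NBC mice (13, 11, 9 and 5). Only NBC mouse 5 lay within the placebo range, and the log2 difference was 0.28 (standard error 0.12, limma adjusted p = 0.778). The AP-1 family gene Batf3 differed by 0.52 (standard error 0.25) and its relative Batf by -0.73 (standard error 0.56). The kinase gene Rps6ka5 differed by -0.50 (standard error 0.27) with no overlap, although its other probe set, 1440343_at, gave -0.067. The Egr corepressor Nab1 differed by 0.11 (standard error 0.12), and its other probe set, 1448781_at, by -0.59. Other probe sets of Mapk9 (1421878_at, -0.41) and Mapk14 (1459617_at, 0.54) also had an unadjusted limma p under 0.05.

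Lists for other kinds of stress showed no calls in limma's adjusted test. Read by the brightest probe set, 0 of their tested genes had an unadjusted p under 0.05, against 5.44% of all tested genes. Of 10 heat shock genes, all tested, 5 lay above 0 and 5 below, with a median log2 difference of -0.0054. The mitochondrial chaperone Hspe1 had the smallest p of these, at -0.19 (standard error 0.13). Of 10 glucocorticoid-induced genes, of which Per1, Sgk1 and Errfi1 were also in the primary response list, 5 lay above 0 and 5 below, with a median of 0.012. The glucocorticoid targets Tsc22d3 and Fkbp5 differed by -0.30 (standard error 0.14) and -0.36 (standard error 0.20). Of the other probe sets of Tsc22d3, 1425281_a_at gave -0.67 (standard error 0.20) and 1425557_x_at gave -0.055 (standard error 0.41). The other probe set of Fkbp5, 1448231_at, gave -0.91 (standard error 0.41). Of 10 hypoxia-induced genes 7 were tested, Egln3, Ankrd37 and Car9 being below the filter. Of the 7, 6 lay below 0 and 1 above, where 48.5% of all tested genes lay above, with a median of -0.046. The hexokinase gene Hk2 differed by -0.14 (standard error 0.12) and the angiogenic factor gene Vegfa by -0.12 (standard error 0.13). In these stress lists, probe sets other than the brightest also reached an unadjusted limma p under 0.05. These were 1425281_a_at of Tsc22d3, 1456341_a_at of Klf9 (0.52, brightest -0.018) and 1416077_at of Adm (-0.62, brightest -0.093).

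The genes most like the members in their pattern over the mice were ranked by Pearson's r with the mean of the standardised log2 signals of the 9 tested members, among 11653 other tested genes. The 6 highest, over 8 mice, were Nagpa (r = 0.92), the decoy receptor gene of interleukin 1, Il1r2 (0.89), Mrtfb (0.88), Lxn (0.87), Polr3f (0.87) and Adamtsl1 (0.87). All 6 were at their lowest in placebo mouse 10 or 14. Il1r2 read 254.9 and 331.5 in placebo mice 10 and 14 and 842.2 in NBC mouse 13. With this many genes and 8 mice, such values are a description of these arrays.

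Beside these results, marker lists of other cells were read in the same arrays. Over all tested genes, 48.5% lay above 0 in log2 difference and 5.44% had an unadjusted p under 0.05. The groups did not overlap for 3.93% of them. The adipocyte markers that were matched, 6 of 8, were all bright enough to be tested, with a mean Adipoq signal of 98493 ± 10389 (SD, n = 4) for placebo and of 95192 ± 8521 (SD, n = 4) for NBC. In whole fat, fewer cells of a type and less RNA per cell cannot be told apart. Summed over the 6 macrophage markers, all of them tested, the signal was lowest in placebo mouse 10 (93679) and highest in NBC mouse 13 (189201), the mice with the lowest and highest Fos. The other mice did not keep the order of Fos: placebo mouse 14 (130087) lay above placebo mouse 6 (120305) but below mouse 8 (136422), and NBC mouse 9 (143626) above NBC mouse 11 (123851) and mouse 5 (118307). All 6 macrophage markers lay above 0 in log2 difference, 2 of them at an unadjusted p under 0.05 and 0 after limma's adjustment, and the groups did not overlap for 1, Csf1r, at 0.33 (standard error 0.13). The sum over 8 skeletal muscle markers ranged from 3921.5 to 20185 over the placebo mice. It was 15547 in NBC mouse 9 and 121834, 144163 and 140149 in NBC mice 13, 11 and 5, of which mouse 5 was low for Fos and mice 13 and 11 high. All 8 muscle markers had an unadjusted p under 0.05 and 0 passed limma's adjusted threshold. The sum over 5 lymphocyte markers was 681 and 871 in NBC mice 13 and 11, and 3182 to 8162 in the other 6 mice. The ratio of the 3′ to the 5′ control probe set of Gapdh, a sign of RNA quality, was 1.47 in NBC mouse 5, 1.28 in NBC mouse 11 and 0.844 to 1.11 in the other 6 mice. The 5 fibroblast markers, all tested, lay above 0, with 2 at an unadjusted p under 0.05 and the same 2 without overlap between the groups, while their summed signal overlapped (104935 to 123185 in placebo and 118284 to 138314 in NBC mice). These 2 were Pi16, a marker of fibroblast progenitors, at 1.60 (standard error 0.33, limma adjusted p = 0.651) and the collagen gene Col1a1 at 0.36 (standard error 0.14, limma adjusted p = 0.778). The markers of endothelium, smooth muscle, epithelium, Schwann cells, neutrophils and erythroid cells had summed signals that overlapped between the groups. The part of these cells and of RNA quality in the immediate early signals was not tested.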

How the data were processed

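Signals of 8 arrays, 1 per mouse, were read from the series' value table. The authors deposited 1 intensity per probe set, for which the submitters' processing notes name MAS5 without a version. Trimmed by 2% at either end, every array had a mean of 1500.01, and no further scaling was applied. The scanner, any batch and the genome build were not given in the sources used here. Groups and mouse numbers came from the sample titles. The labels describe mice without saying how they were housed or processed. Differences were tested against the spread between arrays, 1 per mouse, in which mouse, processing and array cannot be told apart. Between arrays, Spearman correlations were 0.941 to 0.975 and at most 0.0776% of signals were identical.

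Names came from the platform annotation (1 gene for 34945, several for 932, none for 9160), with 0 symbols changed by RefSeq. Signals were transformed as log2(signal + 26.5), the 10th percentile of all values, which understates changes of dim transcripts. Of 45101 probe sets, 64 controls were left out, and the 22519 with a mean at or above the median (a signal of about 275) were tested with limma 3.58.1 in R 4.3.3 (lmFit, eBayes, Benjamini-Hochberg, threshold 0.05). A gene was read by its brightest probe set. On simulated arrays of the 22519 probe sets, 51% of 100 probe sets changed 2-fold were recovered. For 100 changed 4-fold this share was 93%, and there were 9 false calls. These shares are not for the immediate early probe sets, whose recovery by themselves was not tested. On the measured arrays, the 8 skeletal muscle markers had a median log2 difference of 4.02, and 0 passed the threshold. Permutation tests were exact and two-sided (Python 3.11.15, scipy 1.17.1).

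The members and lists were chosen with earlier results of these data known. The genes named were all members, the up to 5 genes of smallest p in each other list, the 6 most like the members, and marker genes and controls whose level moved with a result. Other pseudocounts, filters, normalization, variance models, array weights, probe set averaging and leaving out each mouse were tried.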

Additional observations from a re-analysis of the deposited data

Results flagged for a closer look

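In 2 of 24 tested sets of 4 values (12 probe sets in 2 groups), 1 mouse stood far from the other 3, with a gap to the nearest of them, as a share of the range, above Dixon's 95% critical value. Chance gives about 1 in 20 such sets where values are normally distributed. The gaps were taken on linear MAS5 signals, not on the log2 scale of the tests. On a log2 scale a high value lies less far from the rest, and gaps on that scale were not tested. The Atf3 signal of 5269 in NBC mouse 13 was set apart from the other NBC mice by 0.878 of the linear range. The signal of 2297.2 on the Egr2 probe set 1427682_a_at in placebo mouse 8 was set apart from the other placebo mice by 0.888 of the range, while the brighter Egr2 probe set read 2441.5 in that mouse and 2382.4 in placebo mouse 6.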

How the results depend on the processing

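No paired analysis was possible because the groups share no mouse number. None of the 10 genes passed limma's adjusted threshold under any of the 16 alternatives, Fosb being tested only with no filter. Over all probe sets, the number passing was 0 to 19 with 1 mouse left out (19 without NBC mouse 9) and 0 under the other alternatives. The number with an unadjusted p under 0.05 was 1400, and it was 2401 with no filter, 884 with a filter at the 75th percentile, 2127 with array weights, 932 with probe sets averaged by gene and 1039 to 2556 with 1 mouse left out (lowest without placebo mouse 8, highest without NBC mouse 9). The count of tested genes above 0, an alternative count added after seeing the data, was 6 to 9 with 1 mouse left out, and 6 of 6 with the stricter filter. Directions turned with 1 mouse left out for Fos (-0.019 to 0.543), Egr2 (-0.161 to 0.248), Atf3 (-0.163 to 0.383) and Nr4a1 (-0.194 to 0.104), and with array weights for Egr2 (-0.069) and Nr4a1 (0.050). The cause was not tested. Jun, Junb, Egr1, Ier2 and Ier3 stayed above 0 in every alternative that gave a value. The relations of Fos kept their sign and missed the threshold on residuals from the group means, with a pseudocount of 1 and after quantile normalization. Signal over background could not be judged, since no detection call per probe set was used here.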
